A study of Mus musculus with 12 samples.

Results

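Expression of early otic transcription factors was examined in sorted spiral ganglion neurons of mouse embryos. The set was given as 9 genes of the PAX, sine oculis, EYA, DLX, GBX and TBX families: Pax2, Pax8, Six4, Eya1, Eya2, Eya4, Dlx5, Gbx2 and Tbx1. Members were taken by matching the symbol to the Ensembl identifier, and 7 of the 9 were found among the 25674 rows of the count table. Dlx5 and Gbx2 were not analysed here. Spiral ganglion neurons connect the cochlea with the brainstem, and each library came from 100 of them, sorted for the red reporter tdTomato at E14.5. Both inner ears of 1 embryo made up a sample, and the embryos, of either sex and of a mixed C57BL/6/sv129 background, came from 4 litters. The 6 control embryos carried Neurod1Cre, a transgene that expresses Cre recombinase from Neurod1 regulatory sequence, and Rosa26tdTOM, a reporter switched on by Cre. The 6 embryos labelled Isl1CKO carried the same 2 elements together with Isl1loxP/loxP, in which Cre removes a loxP-flanked part of Isl1. The sort thus took cells with a history of Cre activity in both genotypes, and the deletion is limited to cells that have expressed Neurod1. The litter of each library is not given in the labels.

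The inner ear and its neurons arise from the otic placode, a thickening of the head ectoderm. PAX2 and PAX8 are paired-domain factors that commit the ectoderm to an otic fate. Sine oculis proteins such as SIX4 are homeodomain factors that bind DNA and recruit EYA proteins, which are coactivators with phosphatase activity, while DACH proteins act as cofactors in the same network. TBX1, a T-box factor, limits the neurogenic part of the otic vesicle, and the homeodomain factors DLX5 and GBX2 pattern its dorsal side. Neuroblasts leave the vesicle and become the neurons of the ganglion.

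The libraries held 11895603 to 13857480 counts. A level is given in CPM, a gene's counts after TMM scaling to a library of standard size, and 3 counts, taken as the detection floor, correspond to 0.218 to 0.249 CPM. Isl1 itself was not called different between the groups by its whole-gene counts, at 1386 ± 183.7 CPM in the libraries labelled Isl1CKO and 1533 ± 216 CPM in controls (SD, n = 6, edgeR adjusted p = 0.460). Counts over a whole gene do not show whether the loxP-flanked part was removed, so the genotype rests on the labels. Of 10 general neuron markers, all were tested, 1 rose and 3 fell, where 10.2% of all tested genes were called in either direction. The growth-associated gene Stmn2 averaged 2750 CPM in the libraries labelled Isl1CKO and 1891 CPM in controls (edgeR adjusted p = 6.08e-04). The neurofilament genes Nefm, at 878.1 against 3326 CPM, and Nefl, at 577.6 against 1501 CPM, fell (edgeR adjusted p of 2.63e-04 and 3.17e-04). In GENCODE these 2 genes share 1108 exon bases on opposite strands, so part of their counts is uncertain. Elavl4, which encodes a neuronal RNA-binding protein, fell as well, at 1215 against 1702 CPM (edgeR adjusted p = 0.00928). Summed, the 10 markers reached 12010 to 13260 CPM in the libraries labelled Isl1CKO and 13990 to 16090 CPM in controls, without overlap. Neuronal transcripts were thus abundant in each library. The lower sum does not hold for each marker, since 5 of the 10 had a higher mean CPM in the libraries labelled Isl1CKO. The largest fall in CPM was that of Nefm. The mitochondrial share of counts was 0.845% to 1.02% in the libraries labelled Isl1CKO and 1.05% to 1.65% in controls, so it also separated the groups, and its part in the differences below was not tested. Isl1CKO 2, 3 and 5 held both Xist, at 62.7, 77.6 and 132 CPM, and Y-linked transcripts, with mean levels of 60.8, 87.0 and 35.6 CPM. A library of 1 embryo is expected to hold 1 of the 2, so the edgeR fit and the marker list levels were also computed without these 3. The ratios, EYA shares and correlations given below used all 12 libraries only.

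Of the 7 genes, Six4 and Eya2 were higher and Eya4 was lower in the libraries labelled Isl1CKO, whereas Eya1, the most abundant, did not pass the test. In the following, the log2 ratio is the edgeR log2 fold change, positive where the libraries labelled Isl1CKO were higher. Six4 rose 1.57-fold and Eya2 2.17-fold, and Eya4 fell to 0.428 of the control level. Tbx1 was near the floor and lower in most libraries labelled Isl1CKO, and Pax2 and Pax8 were at the floor in both groups. Only Six4, Eya1, Eya2 and Eya4 had enough counts to enter the test. Among these, 2 were called higher, where 5.01% of the 14813 tested genes were, and 1 was called lower, where 5.19% were. With 4 tested genes this share is a description and supports no statement about the set.

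**Figure D1:**
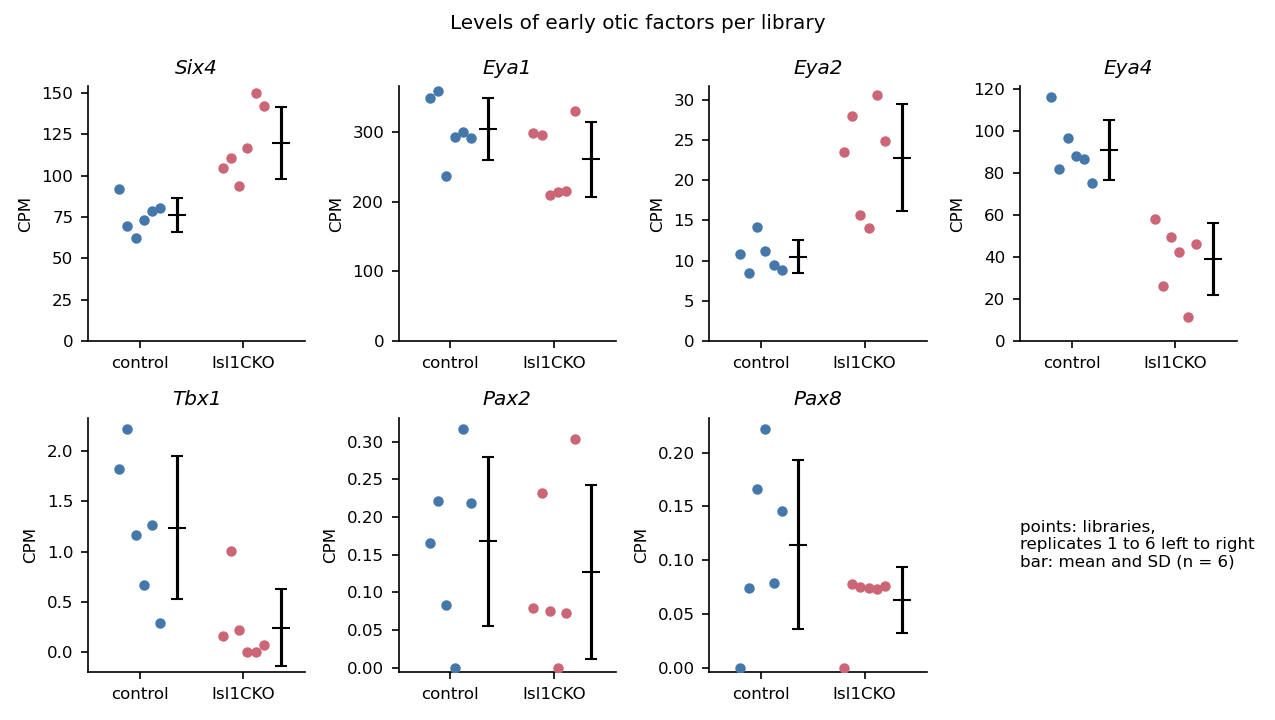
Level of each of the 7 genes in CPM (vertical axis, linear) in the 6 control libraries and the 6 libraries labelled Isl1CKO, with the mean and SD (n = 6) to the right of the points. The groups are apart for Six4 and Eya4, and nearly so for Eya2, and Pax2 and Pax8 stay below 0.32 CPM.

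Six4 (ENSMUSG00000034460, chromosome 12, 73099609 to 73113456, minus strand, GRCm38) encodes a sine oculis homeodomain factor. In control replicates 1 to 6 its level was 91.8, 69.3, 62.4, 73.3, 78.6 and 80.6 CPM. In replicates 1 to 6 labelled Isl1CKO it was 104.4, 110.9, 93.9, 116.7, 149.8 and 142.3 CPM. The lowest library labelled Isl1CKO was just above the highest control, so the groups did not overlap, and replicates 5 and 6 were the highest. The means were 119.6 ± 21.9 and 76.0 ± 10.2 CPM (SD, n = 6), for a log2 ratio of 0.66 ± 0.13 (SE, edgeR adjusted p = 0.00366). A gap between the groups was seen in 6.78% of all tested genes. Without Isl1CKO 2, 3 and 5 the log2 ratio was 0.67 (edgeR adjusted p = 0.0187).

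Eya1 (ENSMUSG00000025932, chromosome 1, 14168954 to 14310235, minus strand) encodes the coactivator whose loss stops inner ear formation at the otic vesicle. It was read at 348.1, 358.3, 236.3, 293.3, 299.6 and 291.4 CPM in control replicates 1 to 6 and at 298.5, 296.1, 209.6, 214.2, 214.5 and 330.4 CPM in replicates 1 to 6 labelled Isl1CKO. The groups overlapped widely, with a low trio (3, 4 and 5) among the libraries labelled Isl1CKO and control 3 also low. The log2 ratio was -0.22 ± 0.13 (SE, edgeR adjusted p = 0.341).

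Eya2 (ENSMUSG00000017897, chromosome 2, 165595032 to 165771727, plus strand) encodes another EYA coactivator. Control replicates 1 to 6 held 10.8, 8.49, 14.1, 11.2, 9.48 and 8.83 CPM. Replicates 1 to 6 labelled Isl1CKO held 23.5, 28.0, 15.7, 13.99, 30.6 and 24.8 CPM. The groups overlapped by 1 library on each side, since Isl1CKO 4 lay just under control 3. The remaining libraries labelled Isl1CKO were above every control. The means were 22.8 ± 6.65 and 10.5 ± 2.07 CPM (SD, n = 6), for a log2 ratio of 1.12 ± 0.22 (SE, edgeR adjusted p = 0.00426). This call was lost without Isl1CKO 2, 3 and 5, where the log2 ratio was 0.98 (edgeR adjusted p = 0.0543).

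Eya4 (ENSMUSG00000010461, chromosome 10, 23102963 to 23350786, minus strand), a further EYA gene known for its link to hereditary hearing loss, changed in the opposite direction. Its level was 116.3, 82.0, 96.8, 88.1, 86.8 and 75.4 CPM in control replicates 1 to 6. In replicates 1 to 6 labelled Isl1CKO it was 58.1, 26.1, 49.5, 42.6, 11.3 and 46.0 CPM. All libraries labelled Isl1CKO were below all controls, and replicates 5 and 2 were the lowest. The means were 38.9 ± 17.2 and 90.9 ± 14.3 CPM (SD, n = 6), for a log2 ratio of -1.22 ± 0.28 (SE, edgeR adjusted p = 0.0119). Without Isl1CKO 2, 3 and 5 it was -0.90 (edgeR adjusted p = 0.0081).

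Tbx1 (ENSMUSG00000009097, chromosome 16, 18580979 to 18590671, minus strand) held 22, 30, 14, 9, 16 and 4 counts in control replicates 1 to 6. In replicates 1 to 6 labelled Isl1CKO it held 2, 13, 3, 0, 0 and 1 counts. All 6 controls exceeded 3 counts, against Isl1CKO 2 alone in the other group, and that library lay within the control range. Tbx1 did not pass the filter on low counts, and in the fit with no filter its log2 ratio was -2.31 ± 0.95 (SE, edgeR adjusted p = 0.196). Without Isl1CKO 2, 3 and 5, where it passed the filter, the log2 ratio was -3.85 (edgeR adjusted p = 0.0768).

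Pax2 (ENSMUSG00000004231, chromosome 19, 44756045 to 44837871, plus strand) had 0 to 4 counts in each group, and 1 library of each group exceeded 3. Pax8 (ENSMUSG00000026976, chromosome 2, 24420560 to 24475599, minus strand) had 0 to 3 counts in controls and 0 to 1 in the libraries labelled Isl1CKO. A difference between the genotypes was not detectable for these 2 genes at this depth, and no fold is given. In GENCODE, 367 exon bases of Pax8 are shared with Gm13415 on the opposite strand, and the counting strand is not given in the sources used here.

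**Figure D2:**
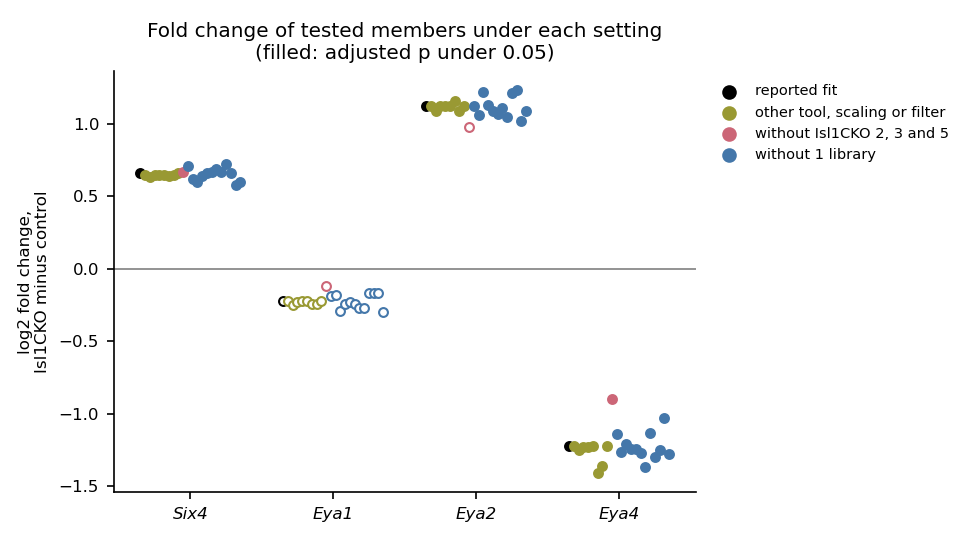
Log2 ratio (vertical axis) of the 4 tested genes in the reported fit and under each of 21 other settings, filled where the adjusted p was under 0.05. Signs stay the same for each gene in these settings, Six4 and Eya4 stay filled, and Eya2 is open once, without Isl1CKO 2, 3 and 5.

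Sequences upstream of a RefSeq start site of Six4 and Eya4, which moved in opposite directions, are shown for the called genes that RefSeq promoter windows covered. Windows matched 6 of the 9 genes, and Eya2 was not among them. Only the part of the window outside the gene's GENCODE exons is printed, 5′ to 3′ on the gene's strand, build GRCm38.p6. The Six4 stretch lies upstream of the annotated gene. The Eya4 stretch lies inside the annotated gene, which reaches to 23350786, and so is not upstream of its first GENCODE exon. Capitals mark a CCAAT box (CCAAT) and a GC box (GGGCGG), which are general promoter elements.
Six4 chr12:73113457-73113675: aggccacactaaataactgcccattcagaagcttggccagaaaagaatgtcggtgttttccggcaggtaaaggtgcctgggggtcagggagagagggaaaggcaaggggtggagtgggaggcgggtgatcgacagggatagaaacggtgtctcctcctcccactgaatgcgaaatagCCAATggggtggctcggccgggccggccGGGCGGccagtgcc
Eya4 chr10:23350137-23350193: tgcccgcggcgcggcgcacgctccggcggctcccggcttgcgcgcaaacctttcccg

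The Six4 stretch of 219 bases held 1 CCAAT box and 1 GC box, searched on both strands, as did 30.9% and 28.3% of the 32851 RefSeq windows cut to that length for each motif alone. It held no match to CTAATNG, a LIM homeodomain core found in 4.61% of windows, to TAATTA (4.52%), to the sine oculis core TCAGGTT (3.08%), to AGATAA (9.01%) or to the E-box CANNTG (62%). The Eya4 stretch was 57 bases long with 78.9% G and C, and held none of the 7 motifs. In windows cut to that length matches were infrequent too. An E-box was found in 22.1%, a CCAAT box in 7.84%, a GC box in 5.73% and each other motif in 0.734% to 2.71%. The whole RefSeq windows of 250 bases reach into annotated exons and are not printed. Among them, the window of a second Six4 start site held 1 TCAGGTT match (3.49% of windows of that length), 97 bases upstream of that site. Both Eya4 windows held 1 GC box (32.7%), and 1 of them an E-box (66.2%). These letter matches are a description of short windows only.

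Levels of different genes were compared as CPM per kb of exon, which takes out gene length. In controls Eya1 was the highest at 39.0 ± 5.66 CPM per kb (SD, n = 6). It was followed by Eya4 at 9.65 ± 1.52, Six4 at 7.002 ± 0.936, Eya2 at 3.54 ± 0.700 and Tbx1 at 0.352 ± 0.202 CPM per kb (SD, n = 6). The ranges of Eya4 and Six4 overlapped across control libraries, although Eya4 was above Six4 within each of the 6. In the libraries labelled Isl1CKO Eya1 was again the highest, at 33.4 ± 6.88 CPM per kb (SD, n = 6). There Six4 came next at 11.02 ± 2.02, then Eya2 at 7.69 ± 2.24 and Eya4 at 4.13 ± 1.82 CPM per kb (SD, n = 6), and neighbours among these 3 had overlapping ranges. Per kb, Eya2 was below Eya4 in all 6 controls, with ratios of 0.294 to 0.464. It was above Eya4 in all 6 libraries labelled Isl1CKO, with ratios of 1.008 to 8.64, the lowest of which is close to equality. Before division by length, Eya2 averaged 22.8 CPM and Eya4 38.9 CPM in the libraries labelled Isl1CKO. In those units Eya2 was above Eya4 in Isl1CKO 2 and 5 and below it in the others of that group.

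The 4 EYA genes, Eya3 included, were then expressed as shares of their summed CPM per kb. Eya1 made up 70.3% ± 4.35 of the family in controls and 70.2% ± 2.12 in the libraries labelled Isl1CKO (SD, n = 6). Eya2 had 6.498% ± 1.78 in controls and 16.3% ± 4.86 in the other group (SD, n = 6). Eya4 had 17.5% ± 2.53 in controls and 8.81% ± 4.05 in the libraries labelled Isl1CKO (SD, n = 6), ranging in the latter from 2.94% in replicate 5 to 13.4%. The shares of Eya2 ran from 4.68% to 9.83% in controls and from 12.3% to 25.4% in the other group, so they did not overlap. The summed level was 55.3 ± 5.76 and 47.5 ± 9.09 CPM per kb in controls and libraries labelled Isl1CKO (SD, n = 6), which overlapped.

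**Figure D3:**
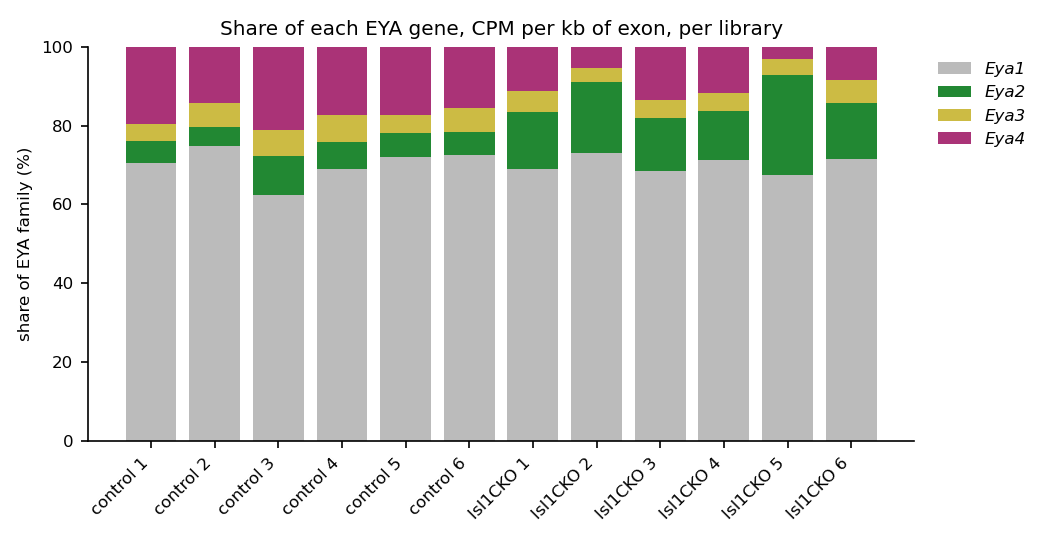
Share of each EYA gene in the summed level of the 4 (vertical axis, % of CPM per kb of exon) in each of the 12 libraries. Eya1 takes about the same share in both groups, the Eya2 band is wider and the Eya4 band narrower in each library labelled Isl1CKO than in each control.

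Of 15 other genes of the PAX, sine oculis, EYA and DACH families, 13 had a row and 5 were tested. Eya3, an EYA coactivator gene that is no member, did not pass the test (log2 ratio -0.48, edgeR adjusted p = 0.224). Six2, a sine oculis factor best known from kidney progenitors, fell from 24.4 ± 5.76 to 4.13 ± 2.81 CPM (SD, n = 6), a log2 ratio of -2.56 ± 0.42 (SE, edgeR adjusted p = 9.47e-04). All libraries labelled Isl1CKO were below all controls for Six2, and replicate 2 was the lowest at 0.928 CPM.

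Both DACH genes rose. Dach1 averaged 44.0 ± 17.7 CPM in controls and 107.2 ± 23.0 CPM in the libraries labelled Isl1CKO (SD, n = 6), a log2 ratio of 1.28 (edgeR adjusted p = 0.00274) with no overlap of the groups. Dach2 averaged 16.9 ± 7.27 CPM in controls and 46.2 ± 14.7 CPM in the libraries labelled Isl1CKO (SD, n = 6), a log2 ratio of 1.45 (edgeR adjusted p = 0.00351), with Isl1CKO 1 inside the control range. The Dach1 call was lost without Isl1CKO 2, 3 and 5 (log2 ratio 1.19, edgeR adjusted p = 0.0532), and the Dach2 call was not (1.45, edgeR adjusted p = 0.0406). In all, 3 of the 5 tested relatives passed, 2 higher and 1 lower, where 10.2% of all tested genes passed, and their median log2 ratio was 0.09 against 0.0045 for all tested genes. The 5 PAX genes with a row among them, Pax3 to Pax7, were below 1.2 CPM on average in each group and were not tested.

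**Figure D4:**
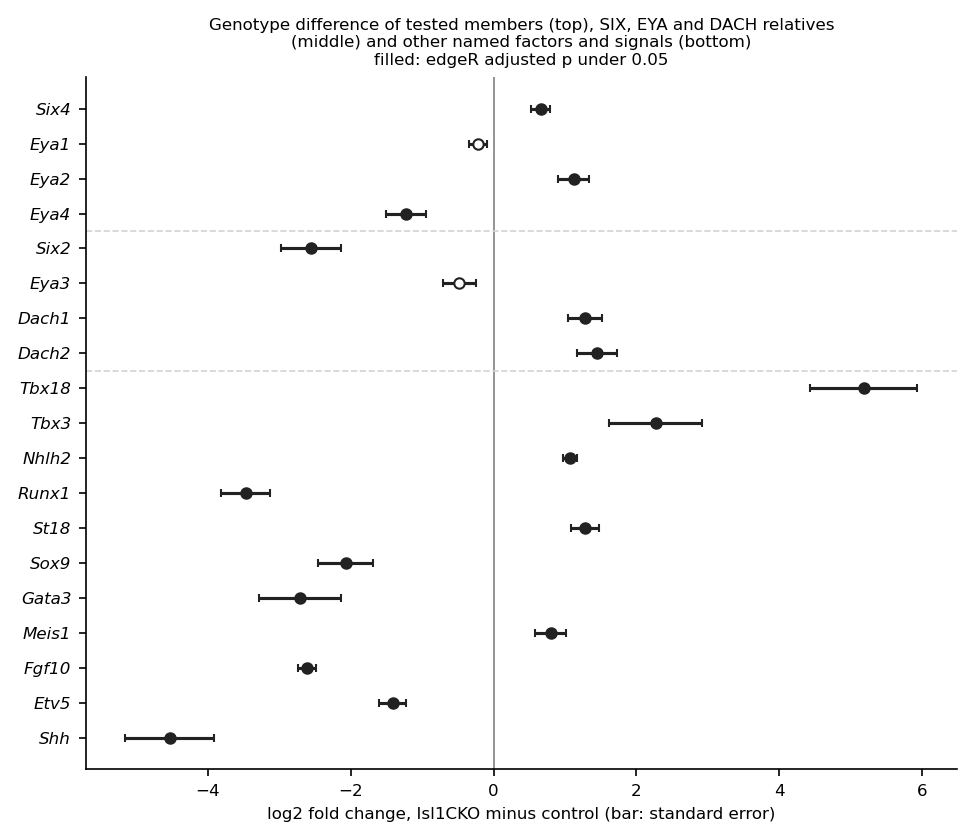
Log2 ratio (horizontal axis) with its standard error for the 4 tested members, for sine oculis, EYA and DACH relatives and for the other named factors and signals, filled where the edgeR adjusted p was under 0.05. Six4, Eya2, Dach1 and Dach2 lie to the right of 0 and Eya4 and Six2 to the left, while Eya1 and Eya3 are open.

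Among 20 DLX, GBX and T-box relatives of Dlx5, Gbx2 and Tbx1, 15 had a row and only 3 were tested, of which 2 rose and 0 fell. Of all tested genes, 5.01% rose and 5.19% fell. The T-box repressor gene Tbx18 averaged 1.09 ± 1.45 CPM in controls and 39.4 ± 10.0 CPM in the libraries labelled Isl1CKO (SD, n = 6), a log2 ratio of 5.18 ± 0.75 (SE, edgeR adjusted p = 3.49e-04). Control 5 held 47 of the 83 control counts, and without it the log2 ratio was 6.12. With limma-voom it was 6.54. In GENCODE Tbx18 shares 970 exon bases with D030062O11Rik on the opposite strand. Tbx3, a T-box repressor as well, had a log2 ratio of 2.27 (edgeR adjusted p = 0.0379) with overlapping groups. That call was lost under 10 of 21 other settings, among them leaving out any one of control 1, 4, 5 and 6 and Isl1CKO 2, 3 and 5 (edgeR adjusted p of 0.0581 to 0.0914). Without Isl1CKO 2, 3 and 5 together its log2 ratio was 0.90 (edgeR adjusted p = 0.609). The third tested gene, Dlx1, had a log2 ratio of 1.77 and an edgeR adjusted p of 0.318.

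Of 29 factors that pattern the otic vesicle, 10 were tested, 1 rose and 2 fell, with a median log2 ratio of 0.34. Over all tested genes 5.01% rose, 5.19% fell and the median log2 ratio was 0.0045. Gata3, a zinc finger factor required for auditory neurons, averaged 1469 ± 256 CPM in controls and 223.9 ± 173.9 CPM in the libraries labelled Isl1CKO (SD, n = 6), a log2 ratio of -2.71 ± 0.57 (SE, edgeR adjusted p = 0.00961). Sox9, which acts in otic placode invagination, averaged 53.0 ± 13.4 CPM in controls and 12.6 ± 9.52 CPM in the libraries labelled Isl1CKO (SD, n = 6), with a log2 ratio of -2.07 (edgeR adjusted p = 0.00228). Meis1, a homeodomain factor, had a log2 ratio of 0.80 (edgeR adjusted p = 0.0321), a call that was lost under 9 of 21 other settings. These included leaving out control 1, control 4 or Isl1CKO 1, 2, 4 or 6 singly (edgeR adjusted p of 0.0563 to 0.0707) and Isl1CKO 2, 3 and 5 together (0.92, edgeR adjusted p = 0.0979). Exons of Gata3 and Meis1 are shared with other annotated genes, so part of their counts is uncertain.

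Of 23 neuroblast and early neuron factors, 20 were tested, 7 rose and 3 fell, with a median log2 ratio of 0.37. For all tested genes the shares were 5.01% and 5.19%, and the median was 0.0045. Nhlh2, a basic helix-loop-helix factor of young neurons, rose from 427.6 ± 61.3 to 900.5 ± 108.7 CPM (SD, n = 6, log2 ratio 1.07, edgeR adjusted p = 8.66e-06). St18, a zinc finger factor of the myelin transcription factor family, rose from 192 ± 56.3 to 468 ± 93.9 CPM (SD, n = 6, log2 ratio 1.28, edgeR adjusted p = 4.79e-04). The runt-domain factor gene Runx1 fell from 53.9 ± 14.47 to 4.87 ± 2.40 CPM (SD, n = 6, log2 ratio -3.47, edgeR adjusted p = 9.65e-06). Without Isl1CKO 2, 3 and 5, 6 genes of this list passed in place of 10, where 4.73% of all tested genes passed in place of 10.2%.

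Of 27 genes of the signals that act on the placode, 18 were tested, 0 rose and 4 fell, with a median log2 ratio of -0.50. Among all tested genes 5.01% rose and 5.19% fell, with a median of 0.0045. Fgf10, a ligand of the otic neurogenic region, fell from 870.7 ± 104.1 to 142.8 ± 29.0 CPM (SD, n = 6, log2 ratio -2.61, edgeR adjusted p = 1.60e-08). Etv5, a transcription factor induced by FGF signalling, fell from 127 ± 25.7 to 47.9 ± 14.6 CPM (SD, n = 6, log2 ratio -1.41, edgeR adjusted p = 2.00e-04). The ligand gene Shh fell from 22.4 ± 10.8 to 0.967 ± 1.177 CPM (SD, n = 6, log2 ratio -4.53, edgeR adjusted p = 2.04e-04). For Shh it was -5.47 without Isl1CKO 1, which held 42 of the 75 counts of its group, and -3.89 without Isl1CKO 2, 3 and 5. Fgf10 and Shh share exon bases with antisense genes.

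Genes whose log2 CPM followed each called member most closely over the 12 libraries were taken from 9908 tested genes, as a description. For Eya4 these were Decr1, Gata3 and Kctd16, with Pearson's r of 0.965, 0.964 and 0.960 over 12 libraries. After the group means were removed r was 0.914, 0.915 and 0.902. Gata3 was read at 526.2, 137.9, 281.3, 142.9, 18.2 and 236.8 CPM in replicates 1 to 6 labelled Isl1CKO and at 1004 to 1653 CPM in controls. Isl1CKO 1 was the highest and Isl1CKO 5 the lowest of its group for Eya4 and for Gata3.

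For Six4 the closest genes were Iqcg, Plpp3 and Lrrn1, with r of 0.952, 0.933 and 0.928 over 12 libraries, and for Eya2 they were Ly6e, Igsf3 and Ltv1, with r of 0.947, 0.938 and 0.937. All 6 were themselves higher in the libraries labelled Isl1CKO, with log2 ratios of 2.29, 2.81, 2.67, 0.62, 0.77 and 0.42 in that order (edgeR adjusted p of 0.00197, 7.90e-06, 1.45e-06, 0.00934, 0.00105 and 0.00882). That direction follows largely from the choice, since r over the 12 libraries holds the group difference. With group means removed r was 0.828, 0.783 and 0.81 for the genes near Six4. It was 0.843, 0.775 and 0.758 for those near Eya2. Among the members, r between Six4 and Eya2 was 0.787 over the 12 libraries and 0.268 once group means were removed. Between Six4 and Eya4 it was -0.797 and -0.442, and between Eya2 and Eya4 -0.796 and -0.435. The libraries share their genotype groups, so most of the relation between members lies between the groups.

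**Figure D5:**
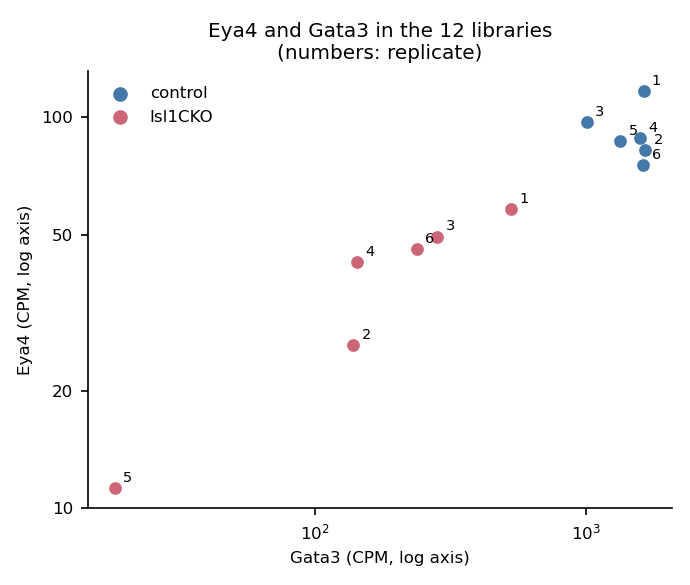
Level of Eya4 (vertical log axis, CPM) against Gata3 (horizontal log axis, CPM) in the 12 libraries, with replicate numbers. Isl1CKO 5 is lowest for both genes at 11.3 and 18.2 CPM, and the controls form a cluster at or above 75.4 and 1004 CPM.

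Markers of other cells that a sorted ganglion sample could hold were read beside these results. Fewer cells of a type and less RNA per cell cannot be told apart in such samples. Otic epithelium markers, of which 10 of 11 had a row, summed to 5.55 to 29.6 CPM in the libraries labelled Isl1CKO and 4.65 to 7.82 CPM in controls, with the highest sums in Isl1CKO 2, 1 and 5. Their mean log2(CPM + 1) was 0.837 ± 0.248 and 0.484 ± 0.0647 (SD, n = 6; two-sided exact permutation test, p = 0.00649, adjusted p = 0.0217 over 10 lists). This call was lost without control 3, 4, 5 or 6 (exact permutation, adjusted p of 0.0505 to 0.0577). The mean CPM was higher in the libraries labelled Isl1CKO for 9 of the 10, Epcam being the exception, and none of the 3 tested passed. Fbxo2, the most abundant, held 818 counts in all in the libraries labelled Isl1CKO and 268 in controls (fitted fold 3.03, edgeR adjusted p = 0.0691), and Lfng held 113 and 24. The defining epithelial genes Epcam and Cdh1 held 65 and 41 counts in the libraries labelled Isl1CKO and 74 and 11 in controls, and Oc90, of the otic vesicle, held 22 and 6. Their part in the rises of Six4 and Eya2 was not tested.

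Spiral ganglion markers, with a row for 8 of 8, among them Gata3 and Runx1, which are counted above, averaged 6.49 ± 0.496 in the libraries labelled Isl1CKO and 8.04 ± 0.0838 in controls (SD, n = 6; exact permutation test, p = 0.00216, adjusted p = 0.0217). Their sums of 3374 to 5045 and 4261 to 5717 CPM overlapped. Of the 8 genes, Gata3, Runx1, Ntrk2 and Ntrk3 fell, as Eya4 did, 4 in all, where 5.19% of all tested genes were called lower. Neurod1, a neuronal differentiation factor and the most abundant of the list, rose from 1467 ± 349.9 to 2706 ± 618.9 CPM (SD, n = 6, log2 ratio 0.88, edgeR adjusted p = 0.00435). Hair cell markers, 9 of 10 with a row, averaged 1.91 ± 0.193 and 2.55 ± 0.3599 (SD, n = 6; exact permutation test, p = 0.00649, adjusted p = 0.0217), and summed to 295.7 to 583.6 and 260.3 to 549.5 CPM. Of the 6 tested, 0 rose and 2 fell, where 5.19% of all tested genes were called lower. Ccer2 fell, at 3.82 against 36.6 CPM in controls, and Pcp4, at 2.05 against 10.8 CPM (edgeR adjusted p of 1.54e-04 and 4.48e-04). Myo6, the most abundant, was at 408.3 against 406.1 CPM (edgeR adjusted p = 0.986). Glial markers, 10 of 10 with a row, summed to 37.5 to 511.7 CPM in the libraries labelled Isl1CKO. In controls they summed to 32.0 to 238.3 CPM (exact permutation p = 0.275, adjusted p = 0.387, n = 6). The highest sums were in Isl1CKO 2 and 5, where Eya4 was lowest. Isl1CKO 1 held 234.1 CPM and had the highest Eya4 of its group. Control 5 held 238.3 CPM, with Eya4 at 86.8 CPM. A relation of the glial sums to Eya4 was not tested. Markers of epibranchial ganglia, 4 of 8 with a row, summed to 148.8 to 369.2 and 218.4 to 314.1 CPM (exact permutation p = 1.00, adjusted p = 1.00, n = 6). Without Isl1CKO 1 the mean log2(CPM + 1) of this list was lower in the libraries labelled Isl1CKO, with a difference of -0.336 (exact permutation, adjusted p = 0.0144). Macrophage markers, 10 of 10 with a row, summed to 1.45 to 746.2 and 2.07 to 393.1 CPM (exact permutation p = 0.310, adjusted p = 0.387, n = 6). Neuron, mesenchyme, endothelial and erythroid lists had adjusted p of 0.0541, 0.147, 0.350 and 0.527 (exact permutation tests, n = 6). Of 11 mesenchyme genes with a row, 6 had a higher mean CPM in the libraries labelled Isl1CKO. Of the 3 tested, 1 rose and 0 fell, where 5.01% of all tested genes rose. Col3a1 rose from 2.65 to 14.1 CPM without overlap (log2 ratio 2.40, edgeR adjusted p = 0.00241). Among the untested, Prrx1 averaged 4.71 CPM against 0.336 CPM in controls, and Twist1 0.0129 against 1.13 CPM. The neuron list passed without Isl1CKO 1 or Isl1CKO 3, lower in the libraries labelled Isl1CKO (exact permutation, adjusted p of 0.0108 and 0.0487). The part of these cells in the member differences was not tested.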

How the data were processed

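The authors deposited 1 table of raw counts per Ensembl gene. The submitters' processing notes name cutadapt 1.18, Bowtie 1.2.2, STAR 2.7.0c, featureCounts and GRCm38.p6, and the strand setting is not given in the sources used here. Symbols, positions and exon lengths came from GENCODE M21 (GRCm38), which held 25627 of the 25674 identifiers, and promoters from RefSeq (GRCm38.p6). The smallest row total was 10 counts. All 12 columns were mapped by group word and number.

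Genotypes were compared with edgeR 4.0.16 (R 4.3.3): filterByExpr with a minimum count of 10, TMM, and the robust quasi-likelihood test without covariates. P-values were adjusted by Benjamini-Hochberg over 14813 genes, with a threshold of 0.05. The standard error is the absolute log2 fold change over the square root of F. The test was tried first on simulated counts with known changes. It recovered 46.7% of the 2-fold and 76.5% of the 4-fold changes, and 4.07% of its calls were false. A gene that did not pass can thus still differ. Marker lists were compared by exact two-sided permutation over 924 splits, where the smallest p is 0.00216. Alternatives used other scalings, filters and tools (DESeq2 1.42.0, limma 3.58.1), a replicate block and fewer libraries.

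Members and gene lists were chosen with earlier results of these data known. Named genes were all members and Isl1. From the first 3 lists of relatives the rule took up to 6 called genes each with at least 5 CPM in 1 group, and from the neuroblast and signal lists the 3 smallest p. For each called member it took the 3 genes of highest r among those averaging log2 CPM of 3 or more. Neuronal genes, untested relatives and cell type markers printed outside this rule were chosen after their values were seen. The labels call the samples technical replicates and the design text biological ones, so p-values measure the spread between these samples. No pair of libraries in a group agreed within sampling noise (lowest chi-square per degree of freedom 20.9). Floors cover counting error only. Some genes of the lists enter the counts and medians but are not reported here by name.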

Additional observations from a re-analysis of the deposited data

Results flagged for a closer look

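Dixon's test at the 95% level set 1 library apart from its group in 6 of 60 cases, and about 3 are due by chance. Isl1CKO 2 held Tbx1 at 1.006 CPM, against 0.225 CPM in the next library. Isl1CKO 1 was highest in its group for Sox9 at 30.8 CPM (next 13.9 CPM), for Shh at 3.32 CPM (next 0.750 CPM) and for the mean log2(CPM + 1) of epibranchial markers at 5.45 (next 3.49). Control 3 was highest for Shh at 43.7 CPM (next 22.7 CPM). Isl1CKO 3 was highest for the endothelial marker level at 1.33 (next 0.549).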

How the results depend on the processing

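Six4 and Eya4 kept their call and direction under all 21 alternatives, with log2 fold changes of 0.58 to 0.72 and -1.41 to -0.90, and Eya2 under 20, with 1.02 to 1.23. Without Isl1CKO 2, 3 and 5, where fewer libraries were used, 767 genes were called in place of 1511, 1 member in place of 2 was called higher, 14 genes of the related lists in place of 22, and 0 marker lists in place of 3 passed, where 3 against 6 libraries allow few splits. Leaving out 1 library in turn gave 1178 to 1517 called genes, 2 members higher and 1 lower each time, 19 to 24 related genes and 2 to 5 marker lists. Without Isl1CKO 1 the epibranchial difference was -0.336 in place of 0.0161 (exact permutation, adjusted p = 0.0144), and up to 0.151 without another library; the cause was not tested. DESeq2 called 2100 genes. Same-numbered libraries were not treated as pairs in the reported fit (correlation of deviations -0.056 to 0.152, and 4 of 12 closest to their own number). Whether some share a litter was not tested, since the litter of each library is not given. With the replicate block 1450 genes were called, and the members called were Six4, Eya2 and Eya4. Low counts kept Pax2, Pax8 and Tbx1 out of the reported fit, and what set those counts was not tested.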

Other observations

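Dlx1 and Dlx2, DLX genes that lie side by side, were high in the same libraries. Dlx1 held 124, 228, 5, 24, 90 and 5 counts in replicates 1 to 6 labelled Isl1CKO, and Dlx2 held 160, 210, 2, 21, 56 and 1. Controls held 1 to 54 and 0 to 41 counts, and control 5 had the most Dlx2. Dlx1 shares 335 exon bases with Dlx1as on the opposite strand, and Dlx2 was not tested because of its low counts. The Notch target Hes5 held 7 to 34 counts in controls and 0 to 7 in the libraries labelled Isl1CKO, and was not tested either.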
